A study of Mus musculus with 6 samples.

Results

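*Gdf10* and 9 other genes of the transforming growth factor beta (TGF-beta) superfamily were followed in RNA-seq of cultured mouse chondrocytes, in 3 samples from *Postn*-/- mice and 3 from *wt* mice. The ligands were *Gdf10*, *Gdf5*, *Gdf6*, *Bmp2*, *Bmp4*, *Bmp6*, *Bmp7*, *Tgfb1*, *Tgfb2* and *Tgfb3*, which are 10 of the 41388 genes counted. *Gdf10* was selected on its difference between the genotypes in these same libraries, so its values are given as a description with no test. The other 9 were chosen by family membership, and the comparison asks whether the difference of *Gdf10* was shared by related ligands. *Postn*-/- mice were homozygous for the *Postn* tm1Jmol allele on a B6129SF2/J (B6/129) background, and their *wt* littermates came from the same crosses of heterozygous mice. All mice were male and 21 days old, with no surgery or treatment, and the study lists 3 mice per genotype for this experiment. The allele is present in every cell of the animal, so it is not restricted to cartilage. Chondrocytes from femoral head cartilage had spent 2 days in culture when RNA was taken from the whole culture, and in such bulk RNA fewer cells of a type and less RNA per cell cannot be told apart.

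Ligands of this superfamily are secreted dimers that bring together type I and type II serine/threonine kinase receptors, which then phosphorylate Smad proteins. The TGF-beta isoforms and activins act mainly through Smad2 and Smad3, and the bone morphogenetic proteins (BMPs) and most growth and differentiation factors through Smad1, Smad5 and Smad9. In cartilage, BMPs drive chondrocyte differentiation, *Gdf5* and *Gdf6* mark the forming joint, and TGF-beta holds back hypertrophy. *Gdf10* encodes a ligand most closely related to Bmp3, an atypical BMP that is abundant in the skeleton.

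The RefSeq promoter table on GRCm38.p6 held 5 of the 10 ligands: *Gdf10*, *Bmp4*, *Bmp6*, *Tgfb1* and *Tgfb2*. The 250 bases before the start of *Gdf10* (chr14:33923337-33923586, plus strand) and of *Tgfb2* (chr1:186705990-186706239, minus strand) are shown because these ligands had similar levels in *wt* and different levels in *Postn*-/-. The starts are those of RefSeq, and the *Tgfb2* window reaches just inside the gene span given below, which ends at 186705992. Capitals mark matches on either strand to CAGAC (the core of a Smad binding element) and GGCGCC (a site bound by BMP Smads). They likewise mark ACGTG (a form of the core of a hypoxia response element) and ACAAAG (the core bound by Sox proteins). Each sequence is written 5′ to 3′ on the strand of its gene.
Gdf10: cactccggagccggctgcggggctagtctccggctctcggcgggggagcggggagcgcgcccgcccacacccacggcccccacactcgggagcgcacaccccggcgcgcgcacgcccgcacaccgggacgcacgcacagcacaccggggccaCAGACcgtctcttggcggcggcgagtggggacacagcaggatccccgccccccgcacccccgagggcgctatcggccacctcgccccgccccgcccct
Tgfb2: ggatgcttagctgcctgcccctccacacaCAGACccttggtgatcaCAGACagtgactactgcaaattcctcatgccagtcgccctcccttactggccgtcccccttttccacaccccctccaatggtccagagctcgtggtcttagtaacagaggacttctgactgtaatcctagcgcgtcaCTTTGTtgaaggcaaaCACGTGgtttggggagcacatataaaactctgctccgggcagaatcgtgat

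The *Gdf10* window held 1 match to CAGAC, starting 98 bases before the gene's start, and none to the other letters searched. Forms of the hypoxia element core other than ACGTG were not searched, so their absence is not shown. The *Tgfb2* window held 2 matches to CAGAC, 1 to ACAAAG and a CACGTG, which counts as a match to ACGTG on both strands. Of all 32851 promoter windows of this length, 42.2% held CAGAC, 9.59% GGCGCC, 16.6% ACGTG and 16.5% ACAAAG. Bases G and C made up 78.8% of the *Gdf10* window and 53.6% of the *Tgfb2* window, against a median of 52.4% over all windows. These matches describe letters in a window and no factor's binding was measured.

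Total counts per sample ranged from 20587640 to 26572260, and 3 counts, taken as the detection floor, corresponded to 0.113 to 0.146 CPM, which are reads of a gene scaled by the library total. The CPM values of named genes, here and below, were also TMM-normalized, which corrects the library sizes for composition. All 18 genes of a chondrocyte list were measured above the filter in these cultures, and *Col2a1*, the main collagen of cartilage, ran from 13696 to 18081 CPM in *Postn*-/- and from 8271 to 11867 in *wt*. *Postn* itself, the targeted gene, measured 4.66, 4.27 and 5.67 CPM in the *Postn*-/- cultures, against 10.1, 10.3 and 6.90 CPM in *wt*, so the genotypes did not overlap but reads remained in *Postn*-/- samples. The log2 difference of −0.91 (standard error 0.22) had an adjusted p of 0.717 by edgeR's quasi-likelihood test (0.00362 unadjusted). The reads were counted over the whole gene, so these values do not separate deleted from remaining exons. The library *wt* replicate 1 stood apart, at 47.7 on the first principal component (31.9% of the variance) against −17.4 to −0.02 for the other 5. Of 14533 genes that passed the low-count filter, edgeR called 2 (0.0138%) at an adjusted p of at most 0.05, and 916 (6.30%) had an unadjusted p of at most 0.05. Other settings changed the number at the unadjusted threshold, to 1882 of 14533 genes with surrogate variables and 1797 of 34295 without a filter. It was 425 of 14259 without *Postn*-/- replicate 3 and 1257 of 14427 without *wt* replicate 2. Counts given below for a setting are to be read against that setting's number.

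*Gdf10* (ENSMUSG00000021943, chromosome 14, 33923587 to 33935280, plus strand) was counted at 156, 143 and 139 CPM in the *Postn*-/- samples after TMM normalization, which corrects the library sizes for composition. It was at 103, 63.2 and 64.7 CPM in the *wt* samples. Every *Postn*-/- sample lay above every *wt* sample, and the closest approach was *wt* replicate 1. The means were 146 ± 8.82 CPM in *Postn*-/- and 77.0 ± 22.6 CPM in *wt* (SD, n = 3 each). On the log2 scale the fitted difference, *Postn*-/- over *wt*, was 0.92 (standard error 0.19), or 1.89-fold. The raw counts behind these values were 2909 to 3872 reads in *Postn*-/- and 1351 to 2683 reads in *wt*. The spread within *wt* was mostly the distance of replicate 1 from the other two, and the log2 difference was 1.19 without that library. Over the 8 other settings with all samples it was between 0.89 and 1.06, and leaving out each sample in turn gave 0.80 to 1.19. No exonic base of *Gdf10* is shared with another annotated gene, and 0.601% of its 50-base words occur in transcripts of another gene.

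**Figure D1:**
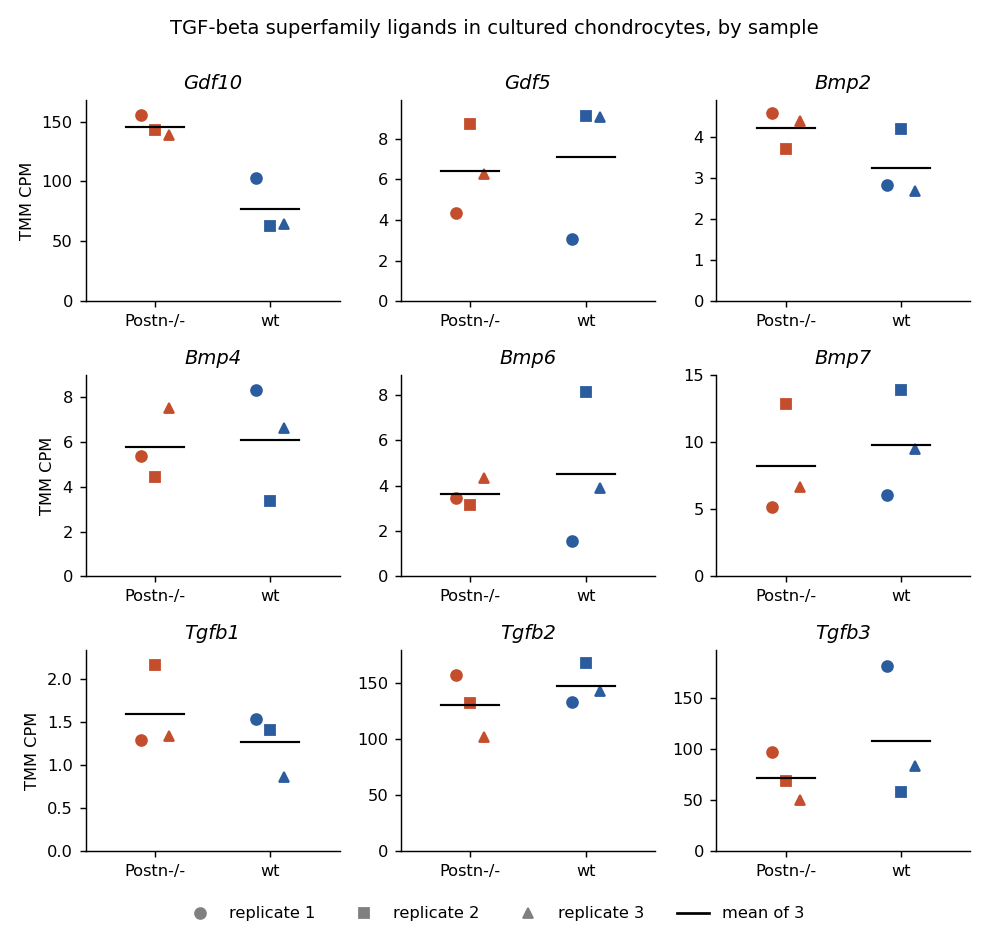
TMM-normalized CPM of the 9 ligands above the low-count filter in each sample, with *Postn*-/- in red, *wt* in blue, 1 marker shape per replicate number and a line at the mean of 3. *Gdf10*, which was selected on this contrast, is the only one of these 9 panels in which all red points lie above all blue points. Its values are 139 to 156 against 63.2 to 103 CPM, and 13.6% of all tested genes had genotypes that did not overlap.

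*Tgfb2* and *Tgfb3* encode TGF-beta isoforms that are secreted in a latent form. *Tgfb2* (chromosome 1, 186623186 to 186705992, minus strand) measured 157, 132 and 102 CPM in the *Postn*-/- cultures, while the *wt* cultures gave 133, 168 and 143 CPM. The genotypes overlapped, with the lowest value in *Postn*-/- replicate 3 and the highest in *wt* replicate 2. The log2 difference was −0.18 (standard error 0.17, 95% interval −0.57 to 0.21, adjusted p = 0.801 in edgeR's test over all genes), and it was −0.034 without *Postn*-/- replicate 3 and −0.34 without *Postn*-/- replicate 1.

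*Tgfb3* (chromosome 12, 86056744 to 86079041, minus strand) measured 97.2, 69.1 and 50.4 CPM in the *Postn*-/- cultures, while the *wt* cultures gave 181, 57.8 and 84.0 CPM. The *wt* mean was set largely by replicate 1, which had more than any other library, while *wt* replicate 2 lay below 2 of the 3 *Postn*-/- samples. The log2 difference was −0.58 (standard error 0.41, interval −1.53 to 0.38, adjusted p = 0.740 by edgeR) and was 0.028 without *wt* replicate 1. That library also had the highest summed level of 13 proliferation genes, at 254 RPKM (CPM per kilobase of exon) against 85.7 to 171 in *Postn*-/- and down to 134 in the other *wt* samples. All 13 of these genes had fitted values below 0 (median log2 difference −0.63), and 1 of them, the cyclin gene *Ccnb1* (−0.75), had an unadjusted p of at most 0.05 with lower values in *Postn*-/-, where 2.35% of all genes stood. The number at that p was 10 without *Postn*-/- replicate 2 (median −1.10), 4 without *wt* replicate 2, 10 without a filter and 11 with surrogate variables. Over all genes, 1104 of 14277, 1257 of 14427, 1797 of 34295 and 1882 of 14533 reached that p in these settings. The list's number was 0 with upper quartile scaling and under the filter on all 6 samples. It was also 0 without *Postn*-/- replicate 1, *Postn*-/- replicate 3 (median −0.41) or *wt* replicate 3. Without *wt* replicate 1, 11 of 13 were below 0 (median −0.30) and 0 reached that p, with *Ccna2* at 0.19 and *Mcm2* at 0.13. Their part in the *Tgfb3* or *Gdf10* values was not tested. Of the 50-base words of *Tgfb3*, 8.79% also occur in another gene's transcripts, so some of its reads could have been left out of the unique counts.

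*Tgfb1*, the third isoform, was low in these cultures. *Tgfb1* (chromosome 7, 25687002 to 25705077, plus strand) measured 1.29, 2.16 and 1.33 CPM in the *Postn*-/- cultures, while the *wt* cultures gave 1.54, 1.403 and 0.863 CPM, from 18 to 53 reads per sample. The values interleaved. Its log2 difference was 0.32 (standard error 0.34, interval −0.45 to 1.10, adjusted p = 0.815 by edgeR), and it was 0.038 without *Postn*-/- replicate 2 and 0.11 without *wt* replicate 3.

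*Bmp2* and *Bmp4* encode closely related BMPs that promote chondrocyte differentiation. *Bmp2* (chromosome 2, 133552159 to 133562885, plus strand) measured 4.58, 3.70 and 4.38 CPM in the *Postn*-/- cultures, while the *wt* cultures gave 2.85, 4.21 and 2.68 CPM. Only *wt* replicate 2 reached the *Postn*-/- range. The log2 difference was 0.38 (standard error 0.24, interval −0.19 to 0.94, adjusted p = 0.730 by edgeR), and it was 0.61 without *wt* replicate 2, when the genotypes no longer overlapped and the adjusted p was 0.568. *Bmp4* (chromosome 14, 46383520 to 46390669, minus strand) measured 5.34, 4.43 and 7.48 CPM in the *Postn*-/- cultures, while the *wt* cultures gave 8.30, 3.35 and 6.61 CPM. Both the highest and the lowest *Bmp4* values were in *wt*, and the log2 difference of −0.09 (standard error 0.35, interval −0.90 to 0.72, adjusted p = 0.957 by edgeR) became 0.21 without *wt* replicate 1.

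*Bmp6* and *Bmp7* encode related BMPs, the first of them characteristic of hypertrophic cartilage. *Bmp6* (chromosome 13, 38345716 to 38499728, plus strand) measured 3.46, 3.13 and 4.34 CPM in the *Postn*-/- cultures, while the *wt* cultures gave 1.58, 8.14 and 3.88 CPM. The *wt* samples spanned a wider range than the *Postn*-/- samples and held both extremes. The log2 difference was −0.31 (standard error 0.51, interval −1.50 to 0.87, adjusted p = 0.885 by edgeR), and it was −0.73 without *wt* replicate 1 and 0.43 without *wt* replicate 2.

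*Bmp7* (chromosome 2, 172868012 to 172940321, minus strand) measured 5.18, 12.9 and 6.67 CPM in the *Postn*-/- cultures, while the *wt* cultures gave 6.08, 13.9 and 9.49 CPM. Replicate 2 was the highest sample in both genotypes. The log2 difference was −0.25 (standard error 0.40, interval −1.17 to 0.68, adjusted p = 0.884 by edgeR), and it was −0.73 without *Postn*-/- replicate 2 and 0.089 without *wt* replicate 2. The same 2 samples also had the highest summed level of 10 hypertrophy and mineralization genes, 8610 RPKM in *Postn*-/- replicate 2 and 6556 RPKM in *wt* replicate 2, within ranges whose low ends were 2348 and 2303. In *Postn*-/- replicate 2 the largest values were those of *Spp1* (9107 CPM) and *Mmp13* (4309 CPM). *Ihh* (2.20 CPM) and *Bglap* (95.3 CPM) were at their *Postn*-/- lowest in that library, while the other genes of the list were at their highest. None of the 10 hypertrophy and mineralization genes had an unadjusted p of at most 0.05, while 3 did with surrogate variables, 2 without a filter, 2 without *wt* replicate 1 and 1 without *Postn*-/- replicate 2. Over all genes, 1882 of 14533, 1797 of 34295, 787 of 14456 and 1104 of 14277 did in these settings. The median log2 difference of the 10 genes was −0.14, and it was 0.54 without *wt* replicate 2 and −0.42 without *wt* replicate 1. It was 0.02 without *Postn*-/- replicate 1 and −0.40 without *Postn*-/- replicate 2. Their part in the *Bmp7* values was not tested.

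*Gdf5* and *Gdf6* encode joint-forming growth and differentiation factors. *Gdf5* (chromosome 2, 155941023 to 155945367, minus strand) measured 4.34, 8.70 and 6.24 CPM in the *Postn*-/- cultures, while the *wt* cultures gave 3.08, 9.14 and 9.06 CPM. Replicate 1 was the lowest sample in both genotypes, and the log2 difference was −0.14 (standard error 0.43, interval −1.13 to 0.85, adjusted p = 0.944 by edgeR). It was −0.50 without *wt* replicate 1 and 0.093 without *wt* replicate 2. Of its exonic bases 40.3% overlap the annotated gene *Gm15557*, and the library kit does not mark strand. Reads in those bases cannot be told apart between the 2 genes and could have been left out as ambiguous, so the *Gdf5* level is uncertain. The shared part was 4% for *Bmp4*, 2.69% for *Tgfb2* and 0 for the other ligands. *Gdf6* (chromosome 4, 9844372 to 9862345, plus strand) had 0, 1 and 3 reads in *Postn*-/- and 2, 3 and 2 reads in *wt*. All 6 values were at or under the floor of 3 counts, so *Gdf6* was not tested, and a difference between genotypes was not detectable at this depth.

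Of the 8 tested ligands other than *Gdf10*, 0 passed an adjusted p of 0.05 (0.0138% of all genes did) and 0 reached 0.05 without adjustment in edgeR's test (6.30% of all genes), counts near those shares for 8 genes. DESeq2's Wald test and voomWithQualityWeights also gave 0 at both thresholds, and voomWithQualityWeights with surrogate variables gave 1 (*Bmp7*) at the unadjusted threshold. None of the 8 had genotypes that did not overlap, which 13.6% of all tested genes had. Their fitted values were above 0 for *Bmp2* and *Tgfb1* and below 0 for the other 6. Tests that miss the threshold do not show equal levels.

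**Figure D2:**
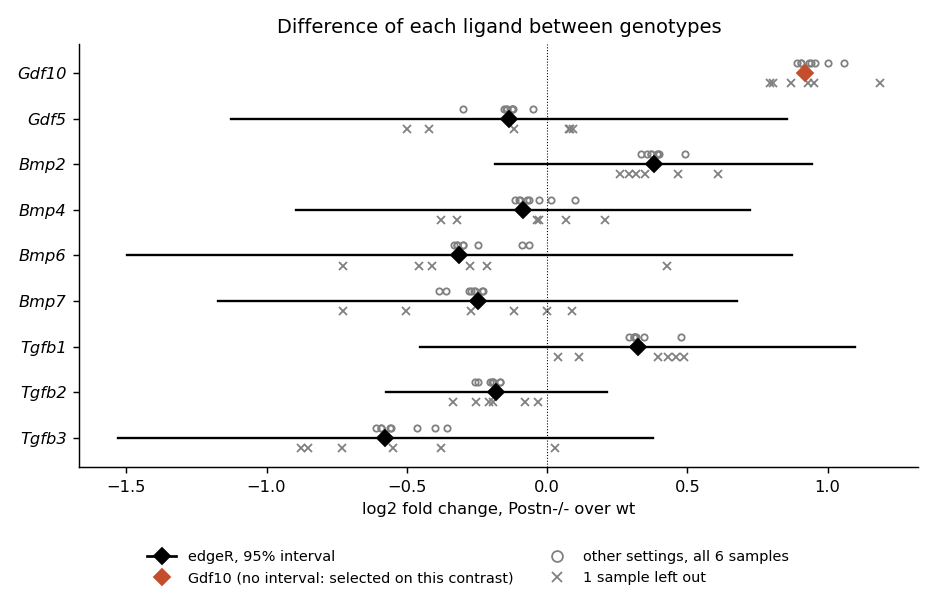
Log2 fold change of each ligand, *Postn*-/- over *wt*: diamonds are edgeR estimates with their 95% intervals, open circles the 8 other settings and crosses the 6 fits that leave out 1 sample. *Gdf10* has no interval because it was selected on this contrast; its values lie between 0.80 and 1.19, while every interval drawn includes 0.

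Levels of different genes were compared as the authors' RPKM, which divides by exon length. In *Postn*-/-, *Gdf10* had the highest level of the 10 ligands, at 59.9, 57.7 and 56.4 RPKM (58.0 ± 1.80, SD, n = 3). *Tgfb2* followed at 27.4 ± 5.09 RPKM and *Tgfb3* at 21.2 ± 6.30. *Gdf10* exceeded *Tgfb2* in 3 of 3 samples with no overlap of their ranges, whereas the ranges of *Tgfb2* and *Tgfb3* overlapped.

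In *wt*, these 3 ligands were not separated: *Tgfb3* was at 31.5 ± 18.7 RPKM, *Tgfb2* at 31.0 ± 3.74 and *Gdf10* at 30.4 ± 8.57. The *wt* samples of *Gdf10* were at 40.3, 24.8 and 26.1 RPKM, so that it ranked 3 of 10 by its mean, and 2 when any 1 of the 3 *wt* samples was left out. After these 3 came a gap in both genotypes, 7.62-fold from *Tgfb3* to *Gdf5* in *Postn*-/- and 9.997-fold from *Gdf10* to *Gdf5* in *wt*.

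The lower ligands kept the same order of means in both genotypes. *Gdf5* was at 2.78 RPKM in *Postn*-/- and 3.04 in *wt*, *Bmp4* at 2.59 and 2.71, *Bmp7* at 2.06 and 2.42, and *Bmp6* at 1.51 and 1.87. The ranges of each neighbouring pair among these overlapped in both genotypes. *Bmp2* was at 1.18 RPKM in *Postn*-/- and 0.904 in *wt*. It lay below *Bmp6* without overlap in *Postn*-/- and overlapped it in *wt*. *Tgfb1* was at 0.623 and 0.490 RPKM, below *Bmp2* without overlap in both, and *Gdf6* was last.

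**Figure D3:**
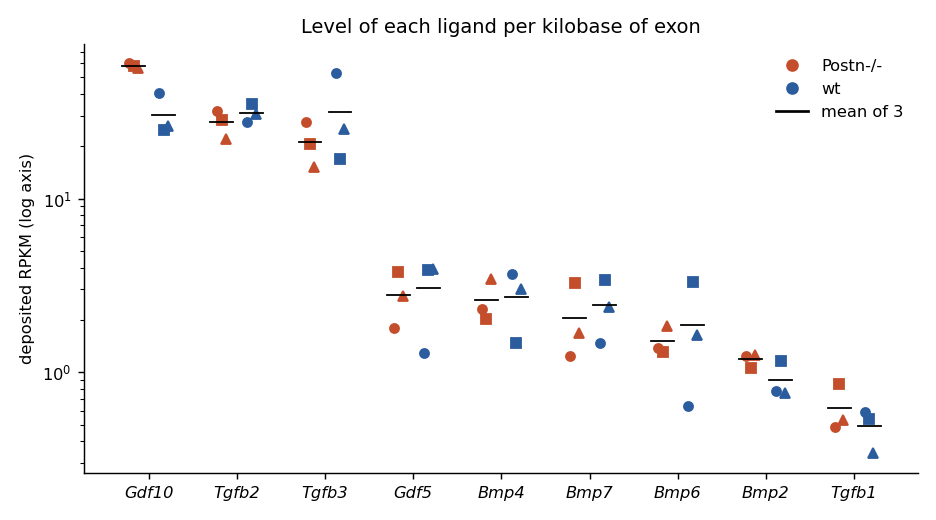
Deposited RPKM of 9 ligands in each sample on a log axis, ordered by their *Postn*-/- mean, with red for *Postn*-/-, blue for *wt*, marker shape for replicate number and a line at the mean of 3; *Gdf6* is left out because it had 0 in 1 sample. *Gdf10*, *Tgfb2* and *Tgfb3* lie above 15 RPKM in every sample and the other 6 below 4.

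The share of *Gdf10* in the summed RPKM of the 10 ligands describes the same difference on another scale. It was 46.7%, 48.5% and 53.7% in the *Postn*-/- samples and 31.3%, 27.4% and 27.8% in the *wt* samples. The genotypes did not overlap, as the choice of *Gdf10* would give. *Gdf10*, *Tgfb2* and *Tgfb3* together made up 84.7% to 93.4% of the sum in all 6 samples. Against *Tgfb2* in the same library, *Gdf10* was at 1.87, 2.04 and 2.56 times its RPKM in *Postn*-/- and at 1.46, 0.710 and 0.855 times in *wt*. Over all 32 family ligands measured, *Gdf10* made up 29.4% to 34.8% of the summed RPKM in *Postn*-/- and 16.8% to 21.4% in *wt*.

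**Figure D4:**
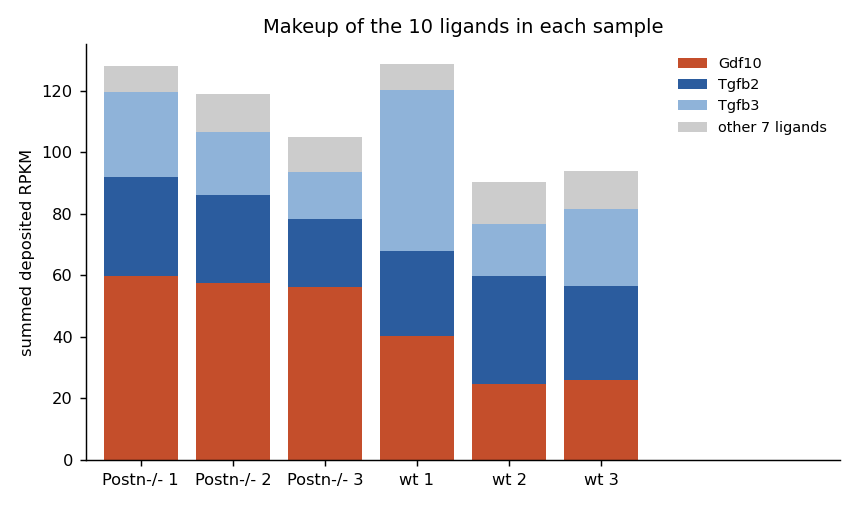
Summed deposited RPKM of the 10 ligands in each sample, stacked by ligand, with the 7 ligands of low level as 1 grey part. The red part, *Gdf10*, is 46.7% to 53.7% of the *Postn*-/- bars and 27.4% to 31.3% of the *wt* bars, and the *Tgfb3* part is largest in *wt* replicate 1.

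The profile of *Gdf10* over the 6 samples was compared with those of the other ligands and of all protein-coding genes with a mean of at least 10 CPM, after subtracting each gene's own mean log2 CPM. Likeness was the root mean square difference of these centred values, so that 0 is an identical profile. Among the ligands, *Tgfb1* was nearest to *Gdf10*, at 0.46 on the log2 scale, with *Bmp2* at 0.47, and *Bmp6* was farthest at 1.02. A flat profile would be at 0.53, the root mean square deviation of *Gdf10* from its own mean, so the nearest ligands were little nearer than that. *Gdf5* and *Bmp7* were the closest pair of all, at 0.32, both low in replicate 1 of each genotype.

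Of 8288 genes compared, the nearest to *Gdf10* were *Col4a2* at 0.14, *Itpr3* at 0.21, *Fam19a5* at 0.23, *Mrc2* at 0.23 and *Vat1* at 0.25. *Col4a2*, a basement membrane collagen chain, was at 15.8, 11.5 and 13.1 CPM in *Postn*-/- and 11.03, 6.51 and 6.56 CPM in *wt*. Like *Gdf10*, it was lower in *wt* with *wt* replicate 1 the highest of those 3 samples. *Tgfb2* ranked 7317 and *Tgfb3* 7946 of the 8288 in nearness to *Gdf10*. These profiles share the same 6 libraries, and the genes were picked for their likeness, so no test was made.

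Among the 22 other ligands measured, 11 passed the filter, and none of the 11 reached 0.05 before adjustment in edgeR's test (6.30% of all genes did) or separated the genotypes (13.6% of all genes did). The number at that p was 1 without *Postn*-/- replicate 1, without *Postn*-/- replicate 2, without *wt* replicate 1 and without a filter. *Inhba*, which encodes the activin A subunit, had the highest level per length, at 26.4 RPKM in *Postn*-/- and 23.4 in *wt*. Its CPM was 33.5, 72.4 and 50.5 in *Postn*-/- and 60.7, 40.1 and 39.6 in *wt*, which overlapped (log2 difference 0.15, standard error 0.28, adjusted p = 0.897 by edgeR). It was 0.39 without *Postn*-/- replicate 1, 0.39 without *wt* replicate 1 and −0.16 without *Postn*-/- replicate 2. *Bmp3*, the closest relative of *Gdf10*, was at 1.29, 2.28 and 3.05 CPM in *Postn*-/- and 1.19, 2.53 and 2.78 in *wt*, a log2 difference of 0.03 (standard error 0.42, interval −0.94 to 0.99, adjusted p = 0.992 by edgeR). *Bmp3* was named for its sequence relation after its values were seen.

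Of 17 receptor and co-receptor genes, 15 were tested, and all 15 had fitted values above 0, with a median log2 difference of 0.19 against 0.0042 over all genes tested. The count above 0 was 15 with DESeq2's size factors and with upper quartile scaling, and 14 with voomWithQualityWeights and 12 to 15 when samples were left out in turn. None passed the adjusted threshold, 4 had genotypes that did not overlap (13.6% of all genes), and 2 had an unadjusted p of at most 0.05 with higher values in *Postn*-/-, where 3.95% of all genes stood. This number was 1 without *Postn*-/- replicate 1, without *wt* replicate 3, without a filter, with DESeq2's Wald test and with voomWithQualityWeights. *Tgfbr2*, the TGF-beta type II receptor and the receptor of highest level per length, was at 80.8, 71.5 and 63.8 CPM in *Postn*-/- and 58.2, 57.8 and 61.1 in *wt* (log2 difference 0.29, standard error 0.11, unadjusted p = 0.0358 and adjusted p = 0.717 by edgeR). *Eng*, which encodes the co-receptor endoglin, was at 45.7, 45.7 and 33.0 CPM in *Postn*-/- and 30.5, 27.2 and 27.1 in *wt* (log2 difference 0.55, standard error 0.15, unadjusted p = 0.00646 and adjusted p = 0.717 by edgeR). Both had genotypes that did not overlap. The unadjusted p of *Eng* was at most 0.05 in 14 of 14 alternatives, and that of *Tgfbr2* in 5 of 14. *Eng* is also expressed by endothelial cells, whose markers *Pecam1*, *Cdh5*, *Kdr* and *Tie1* summed to 0.891 to 1.42 RPKM in *Postn*-/- and 0.700 to 1.41 in *wt*, and *Cdh5* had 0 reads in *wt* replicate 2. With 4 mural cell genes added, the list summed to 87.9 to 90.2 RPKM in *Postn*-/- and 83.5 to 97.3 in *wt*, nearly all from *Cspg4* and *Pdgfrb*, and the pericyte gene *Rgs5* was the 1 of 7 tested at an unadjusted p of at most 0.05, with higher values in *Postn*-/- (3.95% of all genes). Of these 7 genes, 6 had fitted values above 0 (median 0.19), against 3 (median −0.04) without *Postn*-/- replicate 3. The median was 0.07 without *wt* replicate 1, 0.44 without *Postn*-/- replicate 1 and 0.52 without *wt* replicate 3. None of the genes tested reached that p without *Postn*-/- replicate 3, without *wt* replicate 1 or 2, under the filter on all 6 samples or with voomWithQualityWeights. The part of these cells in the *Eng* values was not tested.

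All 8 Smad genes were tested. *Smad5*, a BMP-responsive Smad, was at 47.0, 48.0 and 45.3 CPM in *Postn*-/- and 60.4, 59.5 and 53.7 in *wt*, with no overlap (log2 difference −0.31, standard error 0.10, unadjusted p = 0.0139 and adjusted p = 0.717 by edgeR). It was the 1 Smad at an unadjusted p of at most 0.05, with lower values in *Postn*-/-, where 2.35% of all genes stood, and it exceeded that p without *Postn*-/- replicate 3. Without *Postn*-/- replicate 1, 1 Smad was lower and 1 higher at that p. *Smad2*, of the TGF-beta branch and highest per length over all samples, was at 21.3, 23.2 and 30.4 CPM in *Postn*-/- and 27.2, 26.5 and 21.99 in *wt* (log2 difference −0.02, adjusted p = 0.987 by edgeR), with −0.18 to 0.087 when samples were left out in turn.

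Of 17 extracellular inhibitor genes, 15 were tested, and 1 had an unadjusted p of at most 0.05, a share near the 6.30% of all genes. The number was 0 without *Postn*-/- replicate 3, without *wt* replicate 3 and with the replicate number as a block. It was 2 without *Postn*-/- replicate 2, without *wt* replicate 1 or 2, without a filter and with surrogate variables. The gene at that p with all samples, *Nbl1*, which encodes a BMP antagonist of the DAN family, was at 2.53, 4.39 and 4.91 CPM in *Postn*-/- and 2.85, 1.27 and 1.34 in *wt* (log2 difference 1.10, standard error 0.39, unadjusted p = 0.0238 and adjusted p = 0.717 by edgeR). The genotypes overlapped at *wt* replicate 1, and the unadjusted p was at most 0.05 in 9 of 14 alternatives. *Chrdl1*, which encodes a chordin-like BMP antagonist, had the highest level per length, 112 RPKM in both genotypes (log2 difference 0.01, standard error 0.32, adjusted p = 0.997 by edgeR), and the difference was −0.42 without *Postn*-/- replicate 1 and 0.26 without *Postn*-/- replicate 2.

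Of 18 genes for ligand storage, processing and activation, all were tested and 2 had an unadjusted p of at most 0.05, both higher in *Postn*-/- (3.95% of all genes) and both without overlap (13.6% of all genes). These counts were 1 higher and 2 lower without *Postn*-/- replicate 2, 3 higher and 1 lower without *wt* replicate 2 and without a filter, 3 higher without *wt* replicate 1 and 1 higher without *wt* replicate 3. With voomWithQualityWeights 4 were higher, and 5 with surrogate variables. Over all genes and in both directions together, 1337 and 1882 of 14533 reached that p in these fits. *Ltbp3*, a latent TGF-beta binding protein, was at 34.4, 49.7 and 29.5 CPM in *Postn*-/- and 28.5, 23.3 and 21.1 in *wt* (log2 difference 0.64, standard error 0.21, unadjusted p = 0.0166 and adjusted p = 0.717 by edgeR). It was at 0.39 without *Postn*-/- replicate 2, and the unadjusted p exceeded 0.05 without that library and without *wt* replicate 3. *Pcsk5*, a proprotein convertase, was at 7.63, 7.40 and 5.72 CPM against 2.54, 4.39 and 4.89 (log2 difference 0.82, standard error 0.28, unadjusted p = 0.0183 and adjusted p = 0.717 by edgeR), and the unadjusted p exceeded 0.05 without *Postn*-/- replicate 1. *Thbs1*, which encodes thrombospondin-1, an activator of latent TGF-beta, had the highest level per length, at 611 RPKM in *Postn*-/- and 837 in *wt* (log2 difference −0.47, standard error 0.30, adjusted p = 0.730 by edgeR), and it ranged from −0.25 without *wt* replicate 1 to −0.70 without *wt* replicate 2 and −0.76 without *Postn*-/- replicate 2. In the last 2 settings its unadjusted p by edgeR was 0.0369 and 0.0330.

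Of 19 target genes, all tested, 17 had fitted values above 0, with a median log2 difference of 0.25. With DESeq2's size factors 15 were above 0, and with samples left out in turn 13 to 18. None passed the adjusted threshold, 5 had an unadjusted p of at most 0.05, all higher in *Postn*-/- (3.95% of all genes), and 4 had genotypes that did not overlap (13.6% of all genes). *Atoh8*, which encodes a transcription factor induced by BMP signalling, was at 53.4, 68.7 and 80.8 CPM in *Postn*-/- and 38.3, 31.5 and 42.1 in *wt* (log2 difference 0.86, standard error 0.18, unadjusted p = 0.00128 and adjusted p = 0.717 by edgeR). Its unadjusted p was at most 0.05 in 14 of 14 alternatives, and the lowest adjusted p among them was 0.0560. *Msx1*, a homeobox gene, *Id4*, an inhibitor of differentiation, and *Hey1*, a repressor shared with Notch signalling, had log2 differences of 0.76, 0.62 and 0.83 with unadjusted p of 0.0169, 0.0333 and 0.0363 and an adjusted p of 0.717 each by edgeR. *Hey1* was at 0.35 without *Postn*-/- replicate 3, and its unadjusted p was at most 0.05 in 10 of 14 alternatives, against 12 for *Msx1* and 12 for *Id4*. *Ski*, named after its value was seen, had a log2 difference of 0.31. Leaving out samples in turn brought the count at the unadjusted threshold to between 3 and 6, with 3 when any 1 *wt* library was left out, and it was 8 with surrogate variables. With surrogate variables 1882 of all 14533 genes reached that threshold, against 916 in the main fit.

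*Id3*, an inhibitor of differentiation induced by BMPs and the target of highest level per length, was at 694 RPKM in *Postn*-/- and 683 in *wt* (log2 difference 0.01, standard error 0.21, adjusted p = 0.993 by edgeR), with −0.18 to 0.13 when samples were left out in turn. *Id1* and *Id2*, which belong to the same family, had log2 differences of 0.22 and 0.20, and *Smad7*, an inhibitory Smad induced by TGF-beta, of 0.38, none at an unadjusted p of at most 0.05. The last 3 were named after their values were seen.

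**Figure D5:**
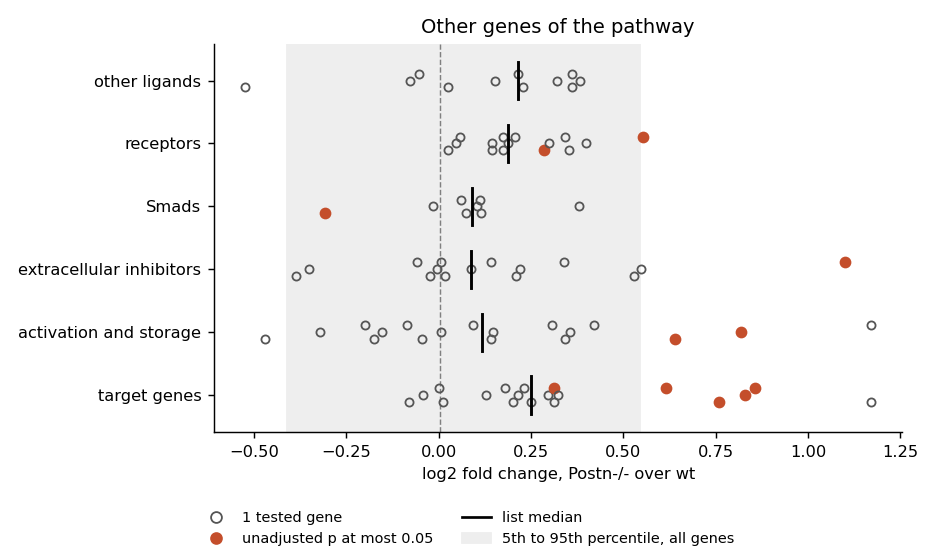
Log2 fold change, *Postn*-/- over *wt*, of each tested gene in 6 pathway lists; filled red points have an unadjusted p of at most 0.05, black bars are list medians, the dashed line is the median over all genes and the grey band their 5th to 95th percentile, −0.41 to 0.54. All 15 receptor points lie above 0, and the list medians run from 0.09 for the Smads and inhibitors to 0.25 for the target genes.

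Markers of the cells that the cultures could hold were set beside these values. In the chondrocyte list, 10 of 18 genes had fitted values above 0 and 4 had an unadjusted p of at most 0.05, all higher in *Postn*-/- (3.95% of all genes). Without *wt* replicate 1 these counts were 8 and 3. The number at that p was 2 without *wt* replicate 3, 6 without a filter and 7 with surrogate variables. Over all genes, 878 of 14309, 1797 of 34295 and 1882 of 14533 reached that p in these settings. *Col2a1* (log2 difference 0.68), *Chad* (0.68) and *Col9a3* (1.00) did not overlap between genotypes, like *Gdf10*, while *Sox9*, the chondrocyte transcription factor, overlapped (0.23). *Col11a2* (0.52), the other gene at that p, overlapped. *Cnmd*, which encodes chondromodulin, did not overlap in the other direction (−0.29), so that 4 of 18 genes had no overlap (13.6% of all genes). *Sox9* and *Cnmd* were singled out with their values known. The list's summed level was 11246 to 15364 RPKM in *Postn*-/- and 10757 to 14124 in *wt*. The 7 superficial zone genes summed to 148 to 378 RPKM in *Postn*-/- and 93.2 to 229 in *wt*, with 6 of 7 fitted above 0 (median log2 difference 0.63) and 0 at an unadjusted p of at most 0.05. Without *wt* replicate 1, 7 of 7 were above 0 (median 1.24) and 3 reached that p, as did 4 with surrogate variables and 3 without a filter. Without *Postn*-/- replicate 1 the median was 0.15. The 14 fibroblast and perichondrium genes summed to 851 to 1542 RPKM in *Postn*-/- and 1094 to 1502 in *wt*, and *Cthrc1* (log2 difference −0.78) was the 1 of 11 tested at that threshold, with lower values in *Postn*-/- (2.35% of all genes). The 10 blood and myeloid genes summed to 252 to 328 RPKM in *Postn*-/- and 219 to 292 in *wt*. Most of this sum was *Ctsk*, with means of 262 RPKM in *Postn*-/- and 236 in *wt*, against 0.299 and 0.226 for *Ptprc*. Of the 6 blood and myeloid genes tested, 5 had fitted values above 0 (median 0.38) and 0 had an unadjusted p of at most 0.05, while the red cell genes *Hbb-bs* and *Hba-a1* had 0 to 2 reads in every sample. Of the blood and myeloid genes, 1 reached that p without *wt* replicate 1, without *wt* replicate 3, without a filter and with surrogate variables, and their median was 0.18 without *Postn*-/- replicate 1 and 0.21 without *wt* replicate 2. The 8 adipose and muscle genes summed to 42.3 to 432 RPKM in *Postn*-/- and 44.9 to 257 in *wt*, both highest in replicate 2 and mostly from *Fabp4* (means 161 and 119 RPKM). Of the 5 tested, *Acta1* (log2 difference −1.30) was the 1 at an unadjusted p of at most 0.05. It was lower in *Postn*-/- (2.35% of all genes) without overlap (13.6% of all genes). Their median was 0.00066, and −1.13 without *Postn*-/- replicate 2, where 3 reached that p. None did without *Postn*-/- replicate 1. The part of these cell markers in the *Gdf10* values was not tested.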

How the data were processed

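RNA-seq was measured in 3 *Postn*-/- and 3 *wt* chondrocyte samples, grouped by their labels. Libraries were made from 10 ng of RNA with the SMARTer Ultra Low kit, which does not mark strand, and sequenced from 1 end over 50 bases. The authors aligned these reads with STAR 2.0.4b to Ensembl release 76 and counted unique, unambiguous reads per gene with featureCounts 1.4.5. They deposited raw counts for each sample. They also deposited CPM, scaled by the library total, and RPKM, which is CPM per kilobase of exon. Both were recomputed from the counts as a check, and RPKM gave the levels. The labels name build mm9, but the exon coordinates in the files are those of GRCm38. GENCODE M21 named 97.5% of identifiers. The test used genes that exceeded 1 CPM in 2 or more samples, without 355 rRNA genes. In R 4.3.3, edgeR 4.0.16 (TMM, quasi-likelihood test, Benjamini-Hochberg adjustment over all genes, no covariates) compared genotypes. The threshold was 0.05, and a standard error is the size of the log2 difference divided by the root of F. The fit was tested on simulated counts.

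The members and lists were chosen with earlier results of these data known. Named were all members, and in each pathway list up to 4 genes with the smallest unadjusted p of at most 0.05 and the gene of highest level. The 5 genes most like *Gdf10* were also named, as were genes of marker lists that moved with genotype. Marker genes outside this rule were chosen with their values known. Alternatives were DESeq2 1.42.0 (size factors and Wald test), upper quartile scaling, voomWithQualityWeights in limma 3.58.1, also with 2 surrogate variables from sva 3.50.0 as in the study's methods, other filters, a block for the replicate number, and omission of each sample. All 15 pairs of libraries differed beyond sampling noise (chi-square per degree of freedom 27.1 to 83.3), which separate preparations of the same RNA could also do. Each library was counted as 1 sample by its label. P-values measure the spread between these samples, and intervals assume it is alike in both genotypes. Other experiments of the study were not analysed here.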

Additional observations from a re-analysis of the deposited data

How the results depend on the processing

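*Gdf10*, selected on these same libraries, kept its sign in all 14 alternatives, which is a description and no test. With the replicate number as a block its log2 difference was 0.96. Same-numbered samples shared only a number: correlations of their deviations were 0.08, 0.16 and 0.14. Every sample correlated best with its own number, as a hint from the data and not from the design. The block took the genes at the unadjusted threshold from 916 to 1188 and those at the adjusted threshold from 2 to 1, and took the superficial zone genes at the unadjusted threshold from 0 to 5 of 7. For the other 8 ligands, 100 of 111 values kept their sign. *Bmp4* turned to 0.012 with voomWithQualityWeights and 0.10 with surrogate variables. Leaving out samples in turn gave −0.50 to 0.093 for *Gdf5*, −0.38 to 0.21 for *Bmp4*, −0.73 to 0.43 for *Bmp6*, −0.73 to 0.089 for *Bmp7* and −0.88 to 0.028 for *Tgfb3*, and the cause was not tested. The number of these ligands at the unadjusted threshold was 1 without a filter (*Tgfb3*), 1 with surrogate variables (*Bmp7*) and 0 to 2 with samples left out, where 2 (*Bmp2* and *Tgfb3*) came without *wt* replicate 2. None passed the adjusted threshold in any setting (lowest adjusted p 0.370). Ligands without overlap numbered 0 to 1 when samples were left out. The rank of *Gdf10* in *wt*, 3 with all samples, was 2 without each *wt* sample. Pathway genes at the unadjusted threshold were 11, with surrogate variables 17, and 6 to 13 with samples left out, 6 without *wt* replicate 3. With 18 to 53 reads per sample *Tgfb1* is, among the 10 ligands followed, the tested one most limited by depth. *Tgfb1* was not tested under the filter on all 6 samples. Over all genes, the 916 at the unadjusted threshold became 1882 with surrogate variables, 1797 without a filter and 425 without *Postn*-/- replicate 3, and the 2 at the adjusted threshold became 10 with DESeq2's Wald test, 9 without a filter and 0 under the filter on all 6 samples.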

Other observations

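Genes that respond to low oxygen were looked at beside *Gdf10* because cartilage is without vessels, and 6 of them were tested: *Adm*, *Ankrd37*, *Bnip3*, *Pdk1*, *Slc2a1* and *Vegfa*. All 6 had fitted values above 0, from 0.07 for *Vegfa* to 0.46 for *Ankrd37*, and 1 had an unadjusted p of at most 0.05 (6.30% of all genes). Without *wt* replicate 1, 2 of the 6 were above 0, and without *Postn*-/- replicate 3, 3 of the 6. The gene at that p, *Adm*, which encodes adrenomedullin, was at 21.1, 21.5 and 20.4 CPM in *Postn*-/- and 13.9, 16.3 and 15.9 in *wt*, without overlap (log2 difference 0.45, standard error 0.12, unadjusted p = 0.00650 and adjusted p = 0.717 by edgeR). *Slc2a1*, the glucose transporter and the gene of highest level among them, ran from 378 to 689 CPM in *Postn*-/- and from 383 to 577 in *wt*. The 5 genes other than *Adm* overlapped between genotypes.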
